A study of Mus musculus with 56 samples.

Results

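Cytosolic ribosomal protein mRNAs were followed in the mouse lung after oleic acid (OA), a fatty acid that injures the lung when it is given in the blood. Spots were taken as members where the gene name listed for the spot was that of a protein of the large subunit (Rpl or Rplp followed by a digit) or of the small subunit (Rps followed by a digit, or Rpsa), without the Rps6k kinases. This rule used names alone and no measured value. It found 99 of the 7625 clones with a gene name, from 48 of 5883 gene symbols, with 57 clones of 27 symbols for the large subunit and 42 clones of 21 symbols for the small subunit. Of the 48 symbols, 22 were on 1 clone and 26 on 2 or more, and clones of 1 gene share a target. Of 3 clones of alveolar type II cell markers, that of the surfactant protein Sftpd had a mean signal of 13.52 log2 units, above 99.5% of the clones. Signals of different spots also depend on the spotted cDNA, so this rank alone does not establish the tissue.

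Every mouse was a female C57Bl/6J of 7 weeks, anesthetized with Xylazine and Ketamine and injected through the tail vein with OA (20 µl, 1.2 µl/g body weight) or with physiological serum, and RNA was extracted from lung. The 27 OA mice, of which 23 were hybridized on 2 microarrays, form an early stage (4 mice killed after 1 hour and 6 after 1.5 hours), an intermediate stage (7 mice after 3 hours and 4 after 4 hours) and a late stage (3 mice after 18 hours and 3 after 24 hours), and serum came as 1 labelled sample at each of 5 time points, with none at 4 hours. All 6 late mice carry lot number 1 in their names, which no source explains, and no early mouse does, so stage and lot cannot be told apart between these stages. The raw median of a microarray lay between 6.76 and 9.36 log2 units for OA and between 5.73 and 8.39 for serum. Lung tissue mixes many cell types, so that fewer cells of a type and less RNA per cell cannot be told apart.

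The cytosolic ribosome is built from a small subunit, which decodes the mRNA, and a large subunit, which forms the peptide bond and carries a flexible stalk of P proteins that recruits translation factors. Its proteins are made in matched amounts in all growing cells, from some of the most abundant mRNAs of a cell, and many of these mRNAs begin with a pyrimidine tract through which mTOR signaling controls their translation. A change in that translation need not change the mRNA level, which is what the microarrays measure. Some members have known roles outside the ribosome: Rpl5 and Rpl11 bind the p53 regulator Mdm2, and Rpsa also occurs as a laminin receptor. Rpl7l1, Rpl22l1 and Rps27l are paralogs that the name rule takes in and that are not standard ribosome constituents in most cells.

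Promoters of genes on which the results turn are shown with the 7 bases CCGGAAG, a motif of the type bound by ETS family factors, in capitals where they occur on either strand (CTTCCGG on the strand shown). RefSeq promoters of 300 bases (250 before and 50 after the annotated start, GRCm38.p6) were found for 37 of the 48 symbols, with Rps3a listed as Rps3a1. Of the 37, 17 held CCGGAAG on either strand (45.9%), against 9.12% of the 27025 genes with a promoter in the table. A match is a string of letters and was not measured as a binding site. Each line gives 30 bases, 5′ to 3′ on the strand of the gene. The first 3 belong to genes with clones that followed the other members most closely over mice (Rpl7, also among these, has no entry), Rps3a1 to a called clone, and Rpsa to a gene whose clones followed the others little. Rpl5, with a called clone, and the paralog Rpl7l1 hold no match and are shown around their annotated start. Matches thus occurred in genes with and without calls and at both ends of the co-variation, and the paralog Rps27l also held one.
Rps21, chr2:180257342-180257371, plus strand: agtaccctgacCCGGAAGcacttaccgagg
Rpl38, chr11:114668549-114668578, plus strand: gggttaaccgtCCGGAAGcggaagcctcgt
Rps7, chr12:28635949-28635978, minus strand: tttcagaagagCTTCCGGtttccacccacc
Rps3a1, chr3:86142659-86142688, minus strand: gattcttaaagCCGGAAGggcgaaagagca
Rpsa, chr9:120127567-120127596, plus strand: cgccccagctaCTTCCGGcctggggtctgt
Rpl5, chr5:107900513-107900542, plus strand: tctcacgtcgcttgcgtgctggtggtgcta
Rpl7l1, chr17:46782642-46782671, minus strand: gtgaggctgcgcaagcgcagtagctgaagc

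Ribosomal protein clones were among the brightest on the microarrays. Signals are the log2 values deposited by the authors, averaged per mouse, and they compare a spot with itself over mice; between spots they also depend on the amount and length of the spotted cDNA, so they order spots and not mRNA levels. The median member had a signal of 12.32 and lay at the 97.9th percentile of the 7625 clones, whose median was 8.50. Of the 99 members, 94 (94.9%) lay above 9.11, the 95th percentile of the 512 spots listed as na, against 32.5% of all clones. The brightest 5% of clones (382) held 84 members, and the brightest 1% (77) held 26. Large and small subunit clones had the same median, 12.32, and the middle 50% of them lay between 11.65 and 12.99 and between 12.02 and 12.90, respectively.

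The highest signals included those of Rps16 clone 2 (13.97, from 13.64 to 14.30 over mice), Rps12 (13.92, from 13.39 to 14.20), Rplp1 clone 1 (13.86, from 13.38 to 14.14) and Rps3a clone 2 (13.58, from 13.21 to 13.86). Rplp1, the only P protein of the stalk that the spot list names, had all 3 of its clones above 99% of all clones. The 5 members at or below the na limit included Rpl30 clone 3 (7.59), Rps27l clone 1 (7.83), Rpl7l1 clone 2 (8.35) and Rpl7l1 clone 3 (8.93). Clones of 1 gene could lie far apart: those of Rpl30 had means from 7.59 to 13.17, those of Rpl7 from 9.50 to 13.54, and those of Rpl7l1 from 8.35 to 12.35. The plot of the signals shows a flat series of bright clones with a short dim tail.

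**Figure D1:**
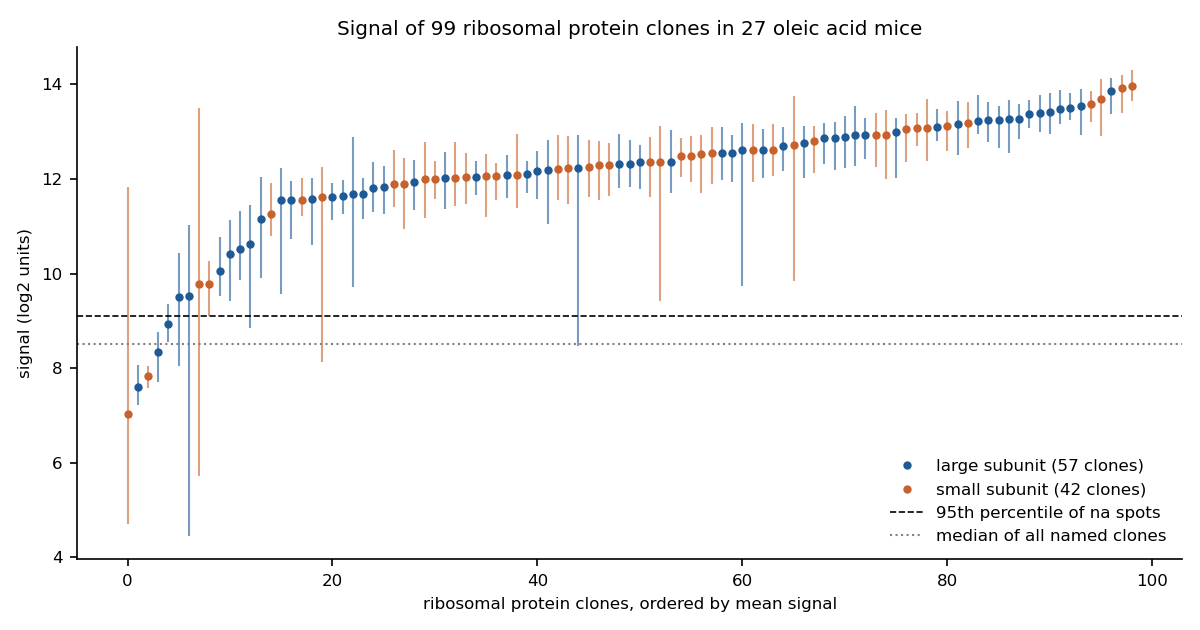
Mean signal over 27 OA mice (points) and range over mice (lines) of the 99 ribosomal protein clones, in log2 units, ordered by mean and coloured by subunit. The dashed line is the 95th percentile of the na spots (9.11) and the dotted line the median of all named clones (8.50); 94 clones lie above the dashed line, and a few have ranges of several log2 units.

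Few clones had an unsteady signal. Between the 2 microarrays of a mouse, the median member had a SD of 0.26 (23 mice), against 0.24 over all clones, and between mice of 1 time point it had a SD of 0.25, against 0.22. The steadiest member between mice was Rps27l clone 1 (SD 0.12), and 72 members had a SD under 0.3. At the other end, 5 members had a SD above 1 between microarrays of the same mouse, among them Rps16 clone 1 (2.80), Rps3a clone 1 (1.91), Rpl30 clone 1 (1.58) and Rpl37a clone 1 (1.38). Rps16 clone 1 was at or below the na limit on 22 of 50 microarrays and above 12 on 22, and in 9 of the 23 mice on 2 microarrays it was above the limit on one and below it on the other. Other clones of Rps16, Rps3a, Rpl30 and Rpl37a did not show this, and the means over members are given with and without these 5 clones. The measure leaves out mice on 1 microarray, among them P7L2, the lowest mouse for Rps2 clone 1 (9.42) and Rps18 clone 1 (8.13).

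Over the 6 time points after OA, few ribosomal protein clones passed the test. limma's moderated F test with Benjamini-Hochberg adjustment called 1 of the 99 members, Rpl5 clone 2, while it called 2.01% of all clones (153 of 7625). At an unadjusted p of 0.05, 12 members (12.1%) passed, against 15.8% of all clones. The median member had a range of 0.40 between its lowest and highest time-point means, against 0.33 for the median clone, and the brightest 5% of other clones (298) had 0.48. No member was called between 1 and 1.5 hours, between 3 and 4 hours or between 18 and 24 hours, where the same fit called 0, 0 and 2 of all clones.

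Rpl5, a large subunit protein that carries the 5S rRNA into the ribosome, was measured on 6 clones. Rpl5 clone 2 had signals of 13.21, 12.93, 12.88 and 12.65 in the 4 mice at 1 hour. It lay between 12.88 and 13.34 at 1.5 hours (median 13.11, n = 6) and between 12.51 and 12.97 at 3 hours (median 12.76, n = 7). It was 12.96, 13.00, 12.83 and 12.78 at 4 hours. The 3 mice at 18 hours gave 12.62, 12.76 and 12.23 and those at 24 hours gave 13.15, 12.95 and 13.09. All 3 mice at 24 hours lay above all 3 at 18 hours, and the range at 1 hour overlapped that of every other time point. The time-point means were 12.92 ± 0.23 (SD, n = 4), 13.13 ± 0.16 (n = 6), 12.73 ± 0.17 (n = 7), 12.89 ± 0.11 (n = 4), 12.54 ± 0.28 (n = 3) and 13.06 ± 0.10 (n = 3), and limma's F test over all clones gave an adjusted p of 0.0496. The call was lost in 22 of the 27 fits that left out 1 mouse, with adjusted p from 0.021 without P4L3 (1.5 hours) to 0.12 without P12L1 (18 hours), the mouse with the dimmest microarray. The other 5 Rpl5 clones had adjusted p from 0.25 (clone 4) to 0.74 (clone 5) in the same test.

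The next members by p over the 6 time points did not pass. Rpl3 clone 5 had means between 11.72 at 18 hours and 12.23 at 24 hours (adjusted p = 0.097, limma), and Rpsa clone 2 between 12.29 at 1 hour and 12.94 at 18 hours (adjusted p = 0.23). Others among the 15 with the smallest p were Rps3a clone 2, Rpl7 clone 4, Rpl5 clones 4 and 6, Rpl3 clone 3, Rps2 clone 2, Rpl8 clone 2, Rpl24 clone 2, Rpl26 clone 3, Rps12 and Rpl4 clone 2, with adjusted p between 0.16 and 0.32. Of the 15, 10 had their lowest mean at 18 hours, the time point that holds the dimmest microarray; the part of brightness in this was not tested.

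Between stages, 2 members were called, and both were lower in the late stage. The F test over the 3 stages called 2 of 99 members (2.02%) against 6.16% of all clones (470 of 7625), and 16 members (16.2%) against 24.3% of all clones had an unadjusted p under 0.05. In the contrast of late with early, 2 members were lower and 0 higher, against 1.11% of all clones called lower and 1.69% called higher. At an unadjusted p under 0.05 (limma), 16 members were lower and 7 higher. Matching shares of all clones are not given for these directions, so they are not read as a trend particular to the members. No member was called between the intermediate stage and either other stage. From early to intermediate, 1.48% of all clones were called higher and 1.15% lower. From intermediate to late these shares were 1.34% and 1.77%.

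Rpl7 clone 4, of a large subunit protein, had signals between 12.14 and 13.04 in the early mice (median 12.65, n = 10), between 11.94 and 12.58 in the intermediate mice (median 12.36, n = 11) and between 11.70 and 12.40 in the late mice (median 12.18, n = 6). The late and early ranges overlapped. It fell by 0.49 ± 0.12 (SE) from early to late, with an adjusted p of 0.031 over the stages and 0.036 for the contrast (limma). Rps3a clone 2, of a small subunit protein at the mRNA exit, had signals between 13.44 and 13.82 in early mice (median 13.76), between 13.36 and 13.86 in intermediate mice (median 13.60) and between 13.21 and 13.54 in late mice (median 13.38). All 3 mice at 18 hours lay below every early mouse, and those at 24 hours, at 13.40, 13.54 and 13.45, overlapped them. It fell by 0.33 ± 0.08 (SE), with an adjusted p of 0.041 over the stages and 0.038 for the contrast.

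With lot as a block no member was called over stages or time points, where 1.55% and 0.931% of all clones still were. Late minus early was then -0.48 for Rps3a clone 2 and -0.31 for Rpl7 clone 4, with adjusted p over the stages of 0.17 and 0.59 (limma). Within lot 1, the 3 intermediate mice had Rps3a clone 2 signals from 13.60 to 13.79, all above the 6 late mice, with a difference of -0.34 in the means. For Rpl7 clone 4 the intermediate mice of lot 1 lay between 12.10 and 12.30, inside the late range, and the means differed by -0.07. Leaving out 1 mouse kept the stage call of Rpl7 clone 4 in 21 of 27 fits and that of Rps3a clone 2 in 16. The number of members called ranged from 0 without P2L2 (1 hour) to 7 without P4L3 (1.5 hours). Matching shares of all clones are not given, so this range is not read as particular to the members.

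**Figure D2:**
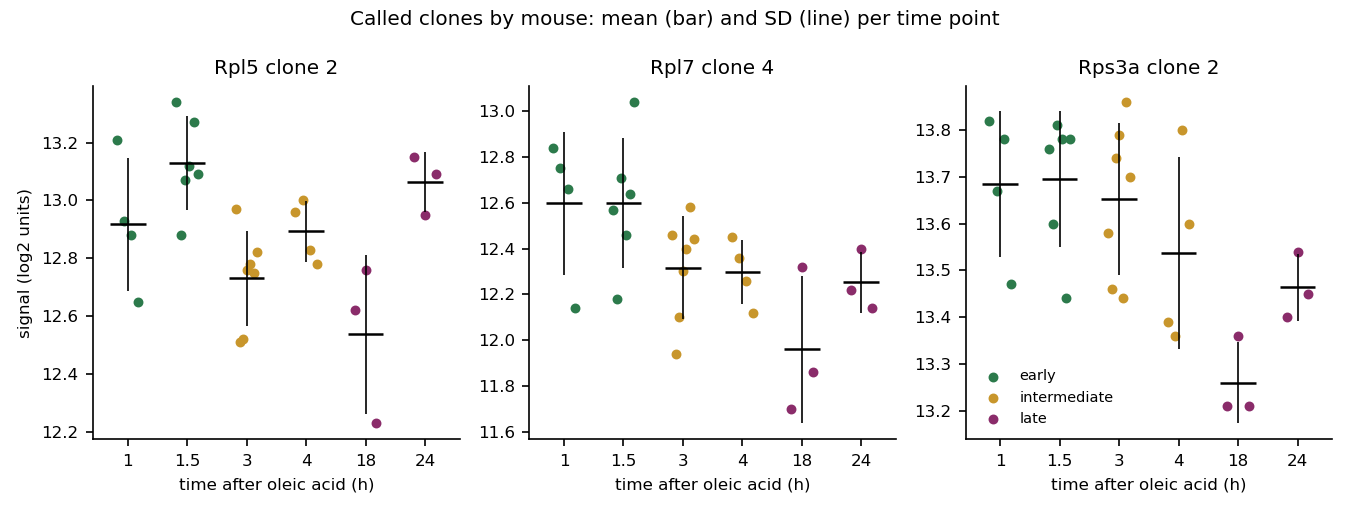
Signal (log2 units) of Rpl5 clone 2, Rpl7 clone 4 and Rps3a clone 2 in each OA mouse by time after injection, coloured by stage. Horizontal bars are time-point means and vertical lines 1 SD; for all 3 clones the lowest mean is at 18 hours, and most time points overlap.

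In the fit without lot, the size of change that the data allow was small for most members. Late and early mice share no lot, so these intervals do not separate stage from lot. The 95% interval of late minus early had a median half-width of 0.26, and it lay within 0.5 log2 units of 0 on both sides for 60 members and within 1 for 91. Intermediate minus early was bounded by 0.5 for 83 members. The difference largest in size was that of the unsteady Rps16 clone 1, 2.47 ± 1.23 (SE, adjusted p = 0.24), and its other clones were at -0.05 and -0.10. The median of late minus early was -0.08 over members and -0.0027 over all clones, and the brightest 5% of other clones stood at 0.03.

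Clones of 1 gene were compared with each other in late minus early. In 16 of the 26 genes on 2 or more clones (61.5%) all clones had the same sign, against 55.7% of the 1362 other genes on 2 or more clones. On 2 clones the shares were 75% (9 of 12) and 58.9% (654 of 1110). On 3 or more clones they were 50% (7 of 14) and 41.3% (104 of 252). These shares were not tested against each other. Apart from Rpl7 clone 4 and Rps3a clone 2, none of the clones named here passed the test. All 6 Rpl5 clones stood below 0 (-0.21 to -0.42), as did all 5 Rpl3 clones (-0.04 to -0.26), all 4 Rpl7 clones (-0.09 to -0.54) and all 3 clones of Rpl26 (-0.10 to -0.36). All 4 clones of Rpsa, a small subunit protein, stood above 0 (0.12 to 0.37), and their adjusted p lay between 0.10 and 0.66 in this contrast. The Rpl8 clones stood at 0.29 and 0.30 (adjusted p = 0.17 and 0.057), and Rps19, whose loss causes Diamond-Blackfan anemia in humans, stood at 0.43 ± 0.13 on its 1 clone (SE, adjusted p = 0.069). Clones of Rps2, a small subunit protein at the mRNA entry, disagreed, with 0.56 ± 0.32 (SE), 0.41 and -0.01. For the first of these, clone 1, the early mouse P7L2, on 1 microarray, stood at 9.42, and the other early mice between 11.93 and 13.04. The 3 Rplp1 clones stood at 0.0007, -0.08 and -0.09, Rps3 clones at 0.12 and -0.11, and Rpl11 at 0.17 ± 0.32. When the clones of a gene were averaged before the fit, none of the 48 genes was called over stages or time points, against 7.56% and 2.09% of all 5883 genes. Clones of 1 gene can also bind mRNAs of its paralogs or pseudogene copies, which the microarrays do not separate.

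Large and small subunit clones varied together over mice. The mean of the 57 large subunit clones and that of the 42 small subunit clones, each clone centred on its own mean, had r = 0.74 over 27 mice (Spearman 0.65), 0.61 without the 2 mice farthest from the median, and 0.83 without the 5 unsteady clones; the points share the normalization and the brightness of each microarray. The median of late minus early was -0.13 over large subunit clones and -0.0041 over small subunit clones, and 38 of 57 and 22 of 42 clones were below 0. Per mouse, the large minus small difference ranged from -0.19 to 0.21 in early mice (median 0.07), from -0.20 to 0.23 in intermediate mice (median 0.04) and from -0.18 to -0.05 in late mice (median -0.08). It was below 0 in 6 of 6 late mice, but 3 early and 4 intermediate mice lay inside or below the late range. Without the 5 unsteady clones the late mice ranged from -0.13 to 0.02, so that 1 was above 0. The 3 intermediate mice of lot 1 spanned -0.07 to 0.10. No test was made of this difference, since the members were chosen as a list.

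The mean of the 99 members varied between mice more than between time points. It ranged from -0.40 in P4L2 (1 hour) to 0.20 in P8L3 (3 hours), each clone centred on its mean over mice. At 1 hour the 4 mice stood at 0.16, 0.09, 0.01 and -0.40, and at 3 hours the 7 mice ranged from -0.24 to 0.20 with a median of -0.05. The 18 hour mice stood at -0.14, 0.08 and -0.25 and the 24 hour mice at 0.10, 0.05 and 0.05. With all 99 members the time points overlapped, and the stage means were 0.01 ± 0.17 (SD, n = 10), -0.0007 ± 0.14 (n = 11) and -0.02 ± 0.14 (n = 6). Without the 5 unsteady clones the stage means were 0.01 ± 0.18, 0.0074 ± 0.12 and -0.04 ± 0.09. The 18 hour mice then stood between -0.181 and 0.016, below the 24 hour mice, which stood between 0.021 and 0.026. The 2 microarrays of a mouse gave similar means (r = 0.75 over 23 mice, 0.56 without the 2 farthest).

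This mean followed how bright a mouse's microarrays were before normalization. Its correlation with the raw median was 0.69 over 27 mice (Spearman 0.56) and 0.58 without the 2 mice farthest from the median, and it was 0.60 without the 5 unsteady clones. Within lots 1, 2 and 3 it was 0.85, 0.88 and 0.73 (9 mice each), and within the early, intermediate and late stages 0.76, 0.54 and 0.91. Without the 2 farthest mice, the values of the intermediate and late stages turned to -0.34 and -0.67, so they rest on those mice. The mean of 13 clones of 3 red cell genes (the globins among them) ran the other way, with r = -0.67 against the members and -0.78 against the raw median, while its level overlapped between stages (13.78 to 13.96 early, 13.77 to 13.96 intermediate, 13.75 to 13.97 late). The part of brightness or of blood in the members' common movement was not tested.

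**Figure D3:**
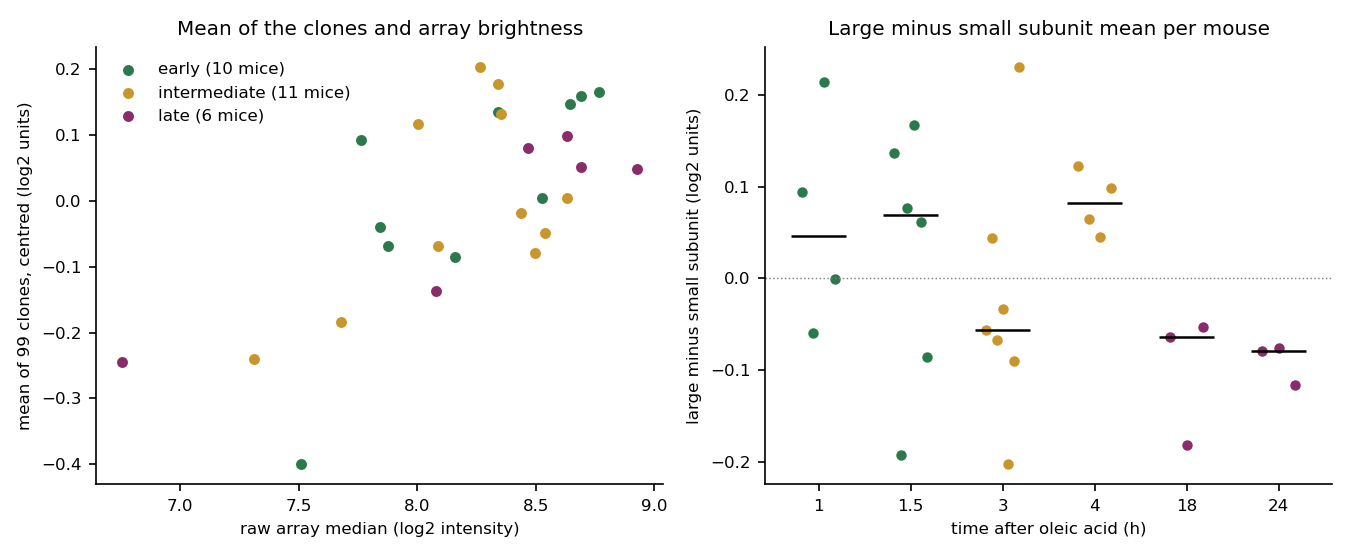
Left, mean of the 99 clones per OA mouse (each clone centred over mice, log2 units) against the raw median intensity of its microarrays (log2), coloured by stage; the dim mice sit low and r is 0.69. Right, large minus small subunit mean per mouse (log2 units) by time after injection with the median as a bar; all 6 late mice lie below 0, inside the range of the earlier mice.

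Members varied together over mice. Over the 27 mice the median correlation was 0.24 over 4851 pairs of members, against 0.0057 over all pairs of clones and 0.07 among the 298 other clones of the brightest 5%. With the raw median removed from every clone it was 0.16, against 0.03 among those bright clones, and with time-point means removed it was 0.26. Clones of the same gene had a median of 0.47 (92 pairs, from -0.28 to 0.87) and clones of different genes 0.24 (4759 pairs). Pairs within the large subunit had 0.28, within the small subunit 0.22 and across subunits 0.22. Mice, microarrays and normalization are shared by all these pairs, so the values describe the data set.

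The members that followed the rest most closely were Rps21 clone 1 (r = 0.83 with the mean of the other members over 27 mice), Rpl7 clone 3 (0.82), Rpl38 (0.82), Rps7 (0.78) and Rps21 clone 2 (0.78). Rps21 clone 1 lay between 10.94 and 12.44, with the lowest value in P4L2, also the mouse with the lowest members' mean. The median member had 0.51, and 50 members were above 0.5. In all, 5 were below 0, among them Rpl7l1 clone 3 (-0.24), Rpl7l1 clone 2 (-0.07), Rplp1 clone 2 (-0.04) and Rps2 clone 2 (-0.02). Both of these Rpl7l1 clones lie below the na limit. The 4 Rpsa clones varied closely with each other (r from 0.73 to 0.87) and little with the rest (0.07, 0.12, 0.21 and 0.16). Of the 26 genes on 2 or more clones, Rps21 had a pair at 0.82, while Rpl37a (0.08), Rps3a (0.09), Rps18 (0.14) and Rps27l (-0.09) had pairs that hardly varied together. Each of these pairs holds a doubtful spot. Rpl37a clone 1 and Rps3a clone 1 are unsteady, Rps27l clone 1 lies below the na limit, and Rps18 clone 1 stood at 8.13 in P7L2.

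Between OA and serum, the direction of the ribosomal protein clones depended on how the microarrays were scaled. With quantile normalization of the array intensities, 50 members were called higher in OA and 4 lower, against 32% and 25.5% of all clones, and with each microarray centred on its median instead, 5 were called higher and 66 lower, against 26.9% and 35.2%. The median member stood at 0.32 (OA minus serum) by quantile normalization and at -0.43 by centring, while the median clone stood at 0.05 and -0.06. For other clones of the brightest 5% the medians were 0.44 and -0.26. The fitted-spot signal, quantile-normalized, gave 47 higher and 5 lower, against 30.4% and 19.3% of all clones. These fits set 23 OA mice against 5 serum samples, 1 for each time point, with time point in the model, and the spread of the serum samples rests on few of them. Of the 99 members, 27 were called higher under one scaling and lower under the other.

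**Figure D4:**
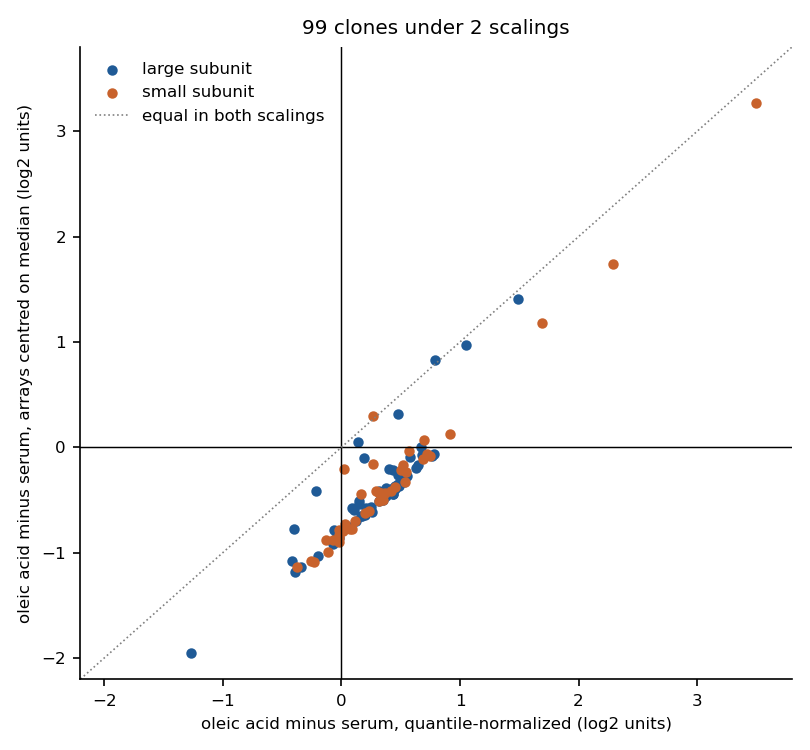
OA minus serum (log2 units) of the 99 clones with quantile-normalized arrays (horizontal) and with arrays centred on their median (vertical), coloured by subunit; the dotted line marks equal values. Most clones lie right of 0 and below 0, and 9 are called in the same direction under both scalings.

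Members called in the same direction under both scalings were 9, of which 5 were higher in OA and 4 lower. No matching share of all clones stands beside these 9 or the 27 called in opposite directions. Neither count is therefore read as particular to the members. Rpl22l1, a paralog of the large subunit protein Rpl22, had quantile-normalized signals of 8.58, 8.34, 8.51, 8.27 and 8.32 in serum at 1, 1.5, 3, 18 and 24 hours. The OA means at these times were 10.04, 10.15, 9.93, 9.66 and 9.64, each above every serum sample. All 5 serum signals lay below the na limit of their own sample (9.24 to 9.46 by quantile normalization), so that serum gives only an upper bound. Set against that limit, Rpl22l1 was at least 1.46-fold higher in OA by quantile normalization and at least 1.27-fold by centring. The fits on the signals as measured gave adjusted p of 1.59e-09 and 2.43e-09 (limma). Within OA it was 10.22 ± 0.33 (SD, n = 10) early and 9.77 ± 0.21 (n = 6) late, with an adjusted p of 0.069 for that contrast. Its promoter table entry held no CCGGAAG.

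The other 4 that were higher under both scalings were dim or unsteady. Rpl30 clone 3 (6.41 in serum, 7.50 in OA), Rpl7l1 clone 2 (7.43 and 8.23) and Rps27l clone 1 (7.47 and 7.75) lay below the na limit of 9.11 in the OA mice, and Rps16 clone 1 is one of the unsteady clones. Of the 4 lower under both, Rpl18, a large subunit protein, had serum signals of 11.64, 11.21, 11.56, 11.79 and 11.67 against OA means of 10.12, 10.32, 10.32, 10.39 and 10.32. The serum samples all lay above these OA means, and the difference was -1.27 ± 0.19 (SE) by quantile normalization and -1.95 ± 0.18 by centring, with adjusted p of 2.37e-06 and 1.15e-09 (limma). The others included Rpl10a clone 1 (-0.34 and -1.14) and Rpl26 clone 3 (-0.40 and -0.77). Other clones of Rpl10a, Rpl26, Rpl30, Rps16, Rps27l and Rpl7l1 were not called in the same direction under both scalings.

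The members with the smallest p in this comparison otherwise lost their call when the arrays were centred. Rps20 went from 0.91 to 0.12, Rpl5 clone 6 from 0.76 to -0.08, Rpl5 clone 5 from 0.78 to -0.06, Rpl3 clone 5 from 0.67 to 0.0060, Rps2 clone 2 from 0.75 to -0.08 and Rps25 from 0.69 to -0.11, with adjusted p between 0.32 and 0.95 after centring. With the raw median of the microarrays as a covariate, quantile normalization gave 31 members higher and 7 lower, against 27.8% and 24.7% of all clones.

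Other genes of protein synthesis were counted with the same tests. Among 60 clones of mitochondrial ribosomal proteins, which serve a separate ribosome, 0 were called over the time points (limma) and 1 over the stages, and 14 lay above the na limit. Of 63 clones of elongation and initiation factors, 3 and 8 were called, and late minus early was called higher for Eif5a (0.75) and lower for 3, among them Eif1 clone 3 (-0.32). Of 78 clones for ribosome biogenesis and RNA polymerase I, 17 of them above the na limit, 1 and 3 were called. Ltv1, a small subunit assembly factor, fell by 0.32 from early to late, but its mean signal of 8.69 lay below the na limit. Aminoacyl tRNA synthetases had 1 and 2 called of 27, and the mTOR and S6 kinase pathway 1 and 1 of 27, the 1 being Sesn1, which was 9.39 ± 0.15 (SD, n = 10) early, 9.77 ± 0.24 (n = 11) intermediate and 9.07 ± 0.14 (n = 6) late (adjusted p = 0.00013 over the stages, limma). Other mRNAs with a pyrimidine tract at the start had 0 and 1 called of 29, and Fau, the ribosomal protein S30 made as a ubiquitin-like fusion, stood at -0.13 from early to late (adjusted p over the time points 0.71). These counts stand beside 2.01% and 6.16% of all clones.

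Markers of other cells were counted in the same way. Of 9 B cell clones, none above the na limit, 6 were called over the stages. The mean of the B cell list per mouse ranged from 7.67 to 8.20 early, from 7.25 to 7.78 in the intermediate stage and from 7.63 to 7.89 late. Of 13 T cell clones 1 was called, and of 4 neutrophil clones 1, S100a8, which fell by 1.51 from early to late (adjusted p = 0.036, limma). The neutrophil list ranged from 9.86 to 11.45 early and from 9.39 to 10.23 late. Of 6 endothelial clones 1 was called over the stages, of 3 alveolar type II clones 1, and of 13 red cell clones 0 (limma). The list means of B cells, T cells, neutrophils, endothelium and alveolar type II cells had correlations of 0.13, 0.31, 0.21, 0.39 and 0.12 with the members' mean over 27 mice, and their part in the calls of Rpl7 clone 4 and Rps3a clone 2 was not tested.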

How the data were processed

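Lung RNA was hybridized as 33P-labelled cDNA to nylon cDNA microarrays. The authors quantified spots with Bzscan2 and, with the NylonArray library in R, corrected them for neighbouring spots and local background and quantile-normalized them. The deposited table holds log2 values, and the deposited array files hold spot intensity by image and by fitted spot. The OA columns of the table followed the image signal (median r = 0.9992, against 0.9705 with the fitted signal). The serum columns followed neither as closely (0.9208 with the fitted signal and 0.9048 with the image signal), and their make-up is not stated.

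Arrays were averaged per mouse, and limma 3.58.1 (R 4.3.3) tested 6 time points, 3 stages and stage contrasts on the table, with Benjamini-Hochberg adjustment over 7625 named clones and a 5% threshold. For OA against serum, image intensity (floor 1, log2) was quantile-normalized over 60 arrays and fitted with time point and treatment. The study's methods give 1 or 2 serum mice per time point, but the labels do not tie arrays to them, so each serum sample counts once. With 1 serum sample per time point, the p-values rest mostly on the spread between OA mice of a time point. The number of mice limits precision. Scripts were tested on simulated data.

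Members and lists were chosen with earlier results of these data known. Named members were the 15 with the smallest p over time points, the 10 with the smallest p against serum, the 5 brightest and 5 dimmest, the 5 with the highest and 5 with the lowest r with the other members, and every clone of Rplp0, Rplp1, Rplp2, Rpsa, Rps6, Rps3, Rpl5, Rpl11, Rpl13a, Rps27a and Rps19 listed; of other lists, at most 4 examples each by smallest p. Members named for a stage call, for agreement between their clones or for unsteady signal were chosen after their values were seen. Alternatives were other signals, scalings and filters, serum subtraction, lot, brightness, a mouse block, SAM, 2 doubtful arrays and leaving out mice; averaging the clones of a gene and leaving out unsteady clones were chosen after seeing the data. Some results are not reported here.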

Additional observations from a re-analysis of the deposited data

Results flagged for a closer look

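Of 172 groups of 4 to 7 mice, 12 (6.98%) held 1 mouse far from the others by Dixon's ratio, where chance gives about 5%. At 1 hour P4L2, the mouse with the lowest members' mean, was low for Rpl5 clone 4 (12.92, others 13.16 to 13.18) and Rps21 clone 1 (10.94, others 11.96 to 12.00). At 1.5 hours P4L3 was low for Rpl5 clone 6 (12.68, others 12.96 to 13.10), Rpl4 clone 2 (12.62, others 13.16 to 13.23), Rpl5 clone 1 (10.15, others 11.06 to 11.45) and Rpl11 (10.01, others 11.78 to 12.24), and P8L2 for Rps3 clone 1 (11.66, others 11.95 to 12.08). At 3 hours P9L3 was low for Rps2 clone 2 (12.10, others 12.60 to 12.90) and high for Rpl30 clone 3 (8.03, others 7.33 to 7.60), and P3L1 was high for Rpl8 clone 2 (13.88, others 13.35 to 13.57). At 4 hours P12L3 was high for Rpl30 clone 3 (8.07, others 7.41 to 7.50) and P13L3 low for Rpl7l1 clone 3 (8.55, others 9.12 to 9.18).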

How the results depend on the processing

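The main counts were 1 member over time points and 2 over stages. Shares of all clones called in the same fit stand in brackets. The counts were 0 and 2 with the image signal quantile-normalized (2.03% and 6.35%). Centred arrays gave 1 and 3 (2.12% and 6.74%), with Rps19, Rps2 clone 2 and Rpl7 clone 4 over stages. The fitted signal gave 0 and 1 (0.813% and 2.05%), the 1 being Rpsa clone 1. With lot as a block the counts were 0 and 0 (0.931% and 1.55%). Brightness as a covariate gave 0 and 4 (1.84% and 6.95%). Without the P7L3 array of conflicting labels they were 1 and 1 (1.94% and 6.11%). The mouse as a random block gave 3 and 2 (5.74% and 10.1%), and SAM gave 0 and 4 (2.3% and 10.5%). With clones of a gene averaged they were 0 and 0 (2.09% and 7.56% of all genes). Leaving out 1 mouse gave 0 to 1 and 0 to 7. Matching shares of all clones are not given, so these counts are not read as particular to the members. Subtracting the serum of the same time, or of 3 hours for the mice at 4 hours, gave 87 and 69, beside 94.3% and 77.5% of all clones. In this setting 1 serum value enters every mouse of a time as a difference without spread. The part of this in the counts was not tested.

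Against serum, 50 members were higher in OA and 4 lower, beside 32% and 25.5% of all clones. In all, 54 members were called in this fit, beside 57.5% of all clones. Centring gave 5 and 66 (26.9% and 35.2% of all clones), and brightness as a covariate 31 and 7 (27.8% and 24.7%). Leaving out 1 sample gave 38 to 54 and 2 to 5 (41 to 58 in all, lowest without the serum at 24 hours). No share of all clones stands beside these ranges, so they are not read as particular to the members. Under centring the median turned to -0.43, and Rpl5 clone 6 (-0.079), Rpl5 clone 5 (-0.060), Rps2 clone 2 (-0.080) and Rps25 (-0.11) changed sign; the cause was not tested. No paired analysis was possible because each mouse was killed at 1 time point and the labels tie no OA mouse to a serum sample. Dim clones at the na limit, 3 mice at each late time point and 5 serum samples limit all of these values.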

Other observations

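One OA microarray at 1.5 hours could not be tied to a mouse and entered no comparison except as an added array in the alternative fits. There 1 member was called over time points and 3 over stages, against 2.57% and 8.29% of all clones. The microarray had a members' mean of 0.11, a large minus small subunit difference of 0.17 and a raw median of 8.16, all in log2 units.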
